A study of Mus musculus with 6 samples.

Results

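The genes described here encode the scaffold that holds the contractile filaments of skeletal muscle in register, which is made of titin, nebulin, the Z-disc, the M-band, the myosin-binding proteins and the desmin network. They were taken by gene symbol. All 41 symbols were found among the 20632 genes of the deposited table, and all 41 had enough counts to be among the 12116 genes tested. RNA was sequenced from whole hind limb muscles of unexercised male C57BL/6 mice (C57BL/6J in the study's methods) aged 3 months, with the tibialis anterior (TA), extensor digitorum longus (EDL), gastrocnemius (GA), soleus (SOL) and quadriceps (Q) used jointly. The 3 control mice (Baf155WT, labelled wild type) carried floxed *Baf155* alleles without Cre, and the 3 mutant mice (Baf155ΔMF, labelled Baf155 -/-) carried the same floxed alleles with the *MCK*-Cre transgene. The muscle creatine kinase promoter drives Cre in skeletal muscle fibres and in the heart, and *Baf155* in the other cells of the muscle was not measured separately here. Baf155 is a core subunit of the SWI/SNF chromatin remodelling complex, and the comparison addresses which transcripts differ when it is deleted in fibres.

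In a sarcomere, actin filaments are anchored at the Z-disc by α-actinin, and myosin filaments are linked at their centre by the M-band. Titin spans from Z-disc to M-band as a molecular spring, nebulin runs along the thin filament, and desmin ties neighbouring Z-discs to each other and to the membrane. Many Z-disc proteins also bind signalling molecules, and a few of their genes, such as *Ankrd1* and *Csrp3*, are known to respond to stretch or injury of the fibre.

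The libraries held 8426022 to 12469335 counts per mouse, and 3 counts, taken as the detection floor, corresponded to 0.229 to 0.35 CPM (counts relative to library size, scaled by TMM), a limit that covers counting error only. *Smarcc1*, which encodes Baf155, measured 23.4, 19.5 and 17.0 CPM in the Baf155WT mice and 7.05, 6.54 and 7.72 CPM in the Baf155ΔMF mice, a log2 fold change of -1.49 (adjusted p = 0.00907 from edgeR). The sample titles begin with MS13, MS14 or MS15, which the labels do not explain. MS13 marked 1 Baf155WT and 2 Baf155ΔMF mice, MS15 the other 2 Baf155WT mice and MS14 the remaining Baf155ΔMF mouse, so that for mice outside MS13 an effect of genotype and one of prefix cannot be told apart. On the first principal component of all genes (43.3% of the variance) the MS13 Baf155WT mouse lay at -13.4, beside the MS13 Baf155ΔMF mice at -17.1 and -15.4 and apart from the MS15 Baf155WT mice at 25.0 and 22.5, with the MS14 Baf155ΔMF mouse between at -1.56. Values in each mouse are therefore given in a fixed order, with the MS13 mouse first for Baf155WT and the MS14 mouse last for Baf155ΔMF, and fold changes within MS13 are given for the main genes. The skeletal muscle markers *Ckm*, *Myh4*, *Tnnt3*, *Atp2a1*, *Ryr1* and *Myod1* summed to 96995 to 108503 CPM. The heart markers *Myh6*, *Nppa*, *Myl7* and *Tnni3* summed to 0.982 to 2.43 CPM, with 3 of the 4 below the count filter.

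None of the 41 scaffold genes passed the limit of 0.05 on the adjusted p between genotypes (edgeR's quasi-likelihood test with Benjamini-Hochberg adjustment over all genes), where 3 of 12116 genes (0.0248%) did. The smallest adjusted p of a scaffold gene was 0.601. At an unadjusted p under 0.05 there were 7, of which *Ankrd1*, *Actc1*, *Mybph* and *Xirp1* were lower in Baf155ΔMF muscle and *Actn2*, *Xirp2* and *Myoz2* were higher. The lower ones made up 9.76% of the scaffold genes against 4.6% of all genes tested, and the higher ones 7.32% against 3.35%. The median log2 fold change was 0.02 over the scaffold genes and -0.00 over all genes, with 21 scaffold genes above 0 and 20 below. The fitted values ran from -0.98 (*Ankrd1*) to 0.43 (*Ttn*), and 26 of 41 (63.4%) lay within 0.2 of 0, as did 69.8% of all genes. All 3 Baf155ΔMF mice were above all 3 Baf155WT mice for *Tcap* and *Mybpc1* (4.88% of the scaffold genes, 5.2% of all genes), and below them for *Mybph* and *Ankrd1* (4.88%, against 5.57% of all genes). The 6 mice can be assigned to genotypes in 20 ways, and the smallest two-sided p of an exact permutation test per gene is therefore 0.10.

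**Figure D1:**
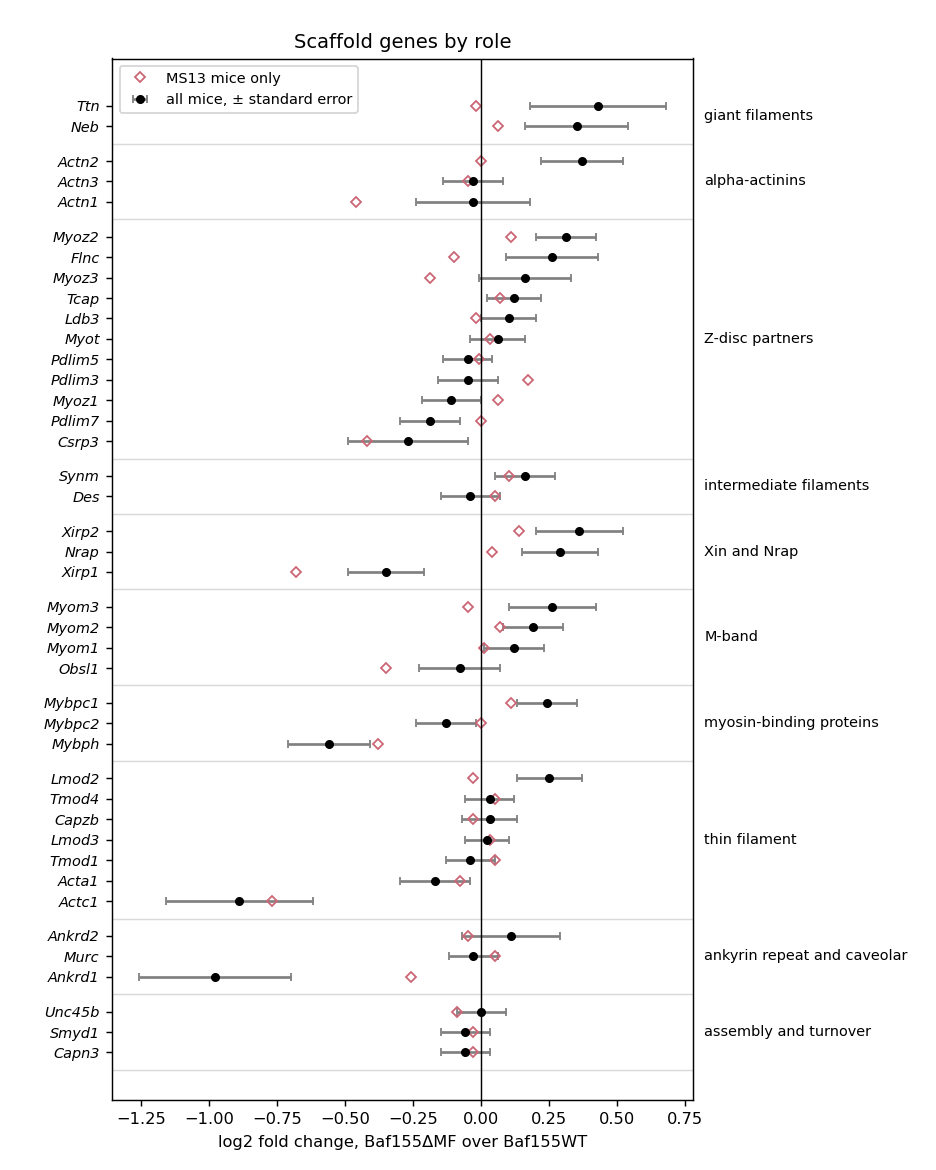
Log2 fold change of each scaffold gene, Baf155ΔMF over Baf155WT, grouped by role (x axis, log2 scale). Black points and bars are the edgeR estimate ± standard error from all 6 mice, and open diamonds are the fold change between the MS13 mice alone (2 Baf155ΔMF, 1 Baf155WT, no error). *Ankrd1*, *Actc1* and *Mybph* lie farthest below 0, and the diamonds of *Ttn*, *Neb*, *Actn2* and *Nrap* lie near 0 although their black points lie between 0.29 and 0.43.

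The promoters of the scaffold genes with the smallest unadjusted p-values are shown, although none of these genes passed the adjusted limit. Of the 7 named above, 6 have an entry in the RefSeq table used here (GRCm38.p6), all except *Xirp1*. Each sequence is the gene's strand, 5′ to 3′, from 250 bases before to 50 bases after the annotated start, 300 bases in all. Capitals mark matches, on either strand, to the M-CAT element (CATTCC), the STAT element (TTC and GAA with any 3 bases between), the HIF core (ACGTG), the CArG box bound by serum response factor or the MEF2 site.
*Mybph*, chr1:134193198-134193497 (plus strand): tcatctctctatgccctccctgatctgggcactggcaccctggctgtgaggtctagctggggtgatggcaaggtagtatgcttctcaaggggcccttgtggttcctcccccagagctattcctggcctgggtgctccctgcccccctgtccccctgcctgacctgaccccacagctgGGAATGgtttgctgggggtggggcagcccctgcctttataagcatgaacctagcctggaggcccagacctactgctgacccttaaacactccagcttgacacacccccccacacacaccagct
*Ankrd1*, chr19:36119795-36120094 (minus strand): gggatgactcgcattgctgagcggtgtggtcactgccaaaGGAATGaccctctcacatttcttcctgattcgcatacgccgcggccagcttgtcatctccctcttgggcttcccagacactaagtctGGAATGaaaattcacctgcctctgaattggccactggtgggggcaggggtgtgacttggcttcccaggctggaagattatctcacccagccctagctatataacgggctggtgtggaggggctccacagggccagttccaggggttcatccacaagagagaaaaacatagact
*Actc1*, chr2:114052826-114053125 (minus strand): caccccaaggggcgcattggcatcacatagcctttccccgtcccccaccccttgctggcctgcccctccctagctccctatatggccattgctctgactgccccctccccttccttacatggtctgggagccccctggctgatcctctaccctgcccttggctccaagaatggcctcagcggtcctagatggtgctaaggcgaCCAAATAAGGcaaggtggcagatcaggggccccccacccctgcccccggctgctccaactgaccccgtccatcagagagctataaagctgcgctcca
*Myoz2*, chr3:123034938-123035237 (minus strand): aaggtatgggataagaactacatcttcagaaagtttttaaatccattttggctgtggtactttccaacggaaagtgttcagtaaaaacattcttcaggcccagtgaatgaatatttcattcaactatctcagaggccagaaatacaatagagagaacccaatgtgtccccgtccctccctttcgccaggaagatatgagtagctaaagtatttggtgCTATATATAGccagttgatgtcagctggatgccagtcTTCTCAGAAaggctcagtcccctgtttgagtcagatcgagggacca
*Actn2*, chr13:12340683-12340982 (minus strand): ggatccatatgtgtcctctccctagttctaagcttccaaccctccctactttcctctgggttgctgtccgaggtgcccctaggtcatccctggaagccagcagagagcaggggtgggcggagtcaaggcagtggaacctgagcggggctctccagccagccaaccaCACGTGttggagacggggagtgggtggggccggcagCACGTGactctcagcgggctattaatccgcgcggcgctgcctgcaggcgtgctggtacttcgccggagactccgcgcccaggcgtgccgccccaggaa
*Xirp2*, chr2:67445752-67446051 (plus strand): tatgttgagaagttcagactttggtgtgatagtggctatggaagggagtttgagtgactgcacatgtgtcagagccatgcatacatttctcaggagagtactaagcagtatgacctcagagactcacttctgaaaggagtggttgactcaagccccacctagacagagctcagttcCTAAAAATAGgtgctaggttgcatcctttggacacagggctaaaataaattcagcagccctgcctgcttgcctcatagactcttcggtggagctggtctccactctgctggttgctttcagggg

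*Mybph* held 1 M-CAT element, the site of TEAD factors, at bases 178 to 183 of the window, and *Ankrd1* held 2, at 41 to 46 and 128 to 133. *Actc1* held a CArG box at 204 to 213. Among the promoters of the higher genes, *Xirp2* held a MEF2 site at 177 to 186. *Myoz2* held a MEF2 site at 218 to 227 and a STAT element at 255 to 263. *Actn2* held the HIF core on both strands in each of 2 places, at 167 to 172 and 203 to 208. In the 32 scaffold genes with an entry (37 promoters), 8 held M-CAT, 9 the HIF core, 5 a MEF2 site, 4 a CArG box and 1 a STAT element in at least 1 promoter. Of all 32851 promoters in the table, M-CAT was in 14.7%, the HIF core in 19.6%, the MEF2 site in 3.19%, the CArG box in 1.63% and the STAT element in 8.3%. The scaffold counts are of genes, some with several promoters, and the percentages are of single promoters, so they cannot be compared directly. All are matches of letters in a window, and binding was not measured in these libraries.

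The giant filament genes had the highest median log2 fold change among the groups, at 0.39. *Ttn* (chr2:76703980-76982547, minus strand, GRCm38) encodes titin. It measured 81289.8, 47541 and 37561 CPM in the Baf155WT mice and 85257, 75257 and 62959 CPM in the Baf155ΔMF mice. The MS13 Baf155WT mouse lay among the Baf155ΔMF mice, and the MS15 Baf155WT mice lay below all of them. *Ttn* had a log2 fold change of 0.43 (standard error 0.25; edgeR adjusted p = 0.656) over all 6 mice and -0.02 within MS13. *Neb*, which encodes nebulin (chr2:52136647-52378474, minus strand), measured 16495, 11141 and 10103 CPM in Baf155WT and 17906, 16515 and 13816 CPM in Baf155ΔMF muscle. As for *Ttn*, the MS13 control lay among the mutants and the MS15 controls below them, with a log2 fold change of 0.35 (standard error 0.19) over all mice and 0.06 within MS13. Titin transcripts took 3.92% to 7.89% of all counts in Baf155WT mice and 6.39% to 8.16% in Baf155ΔMF mice, and the 41 scaffold genes together took 11.7% to 15.7% and 14.1% to 15.8%.

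Since reads accumulate along a transcript, levels of different genes were compared per kilobase of exon. By this measure *Acta1*, the skeletal muscle α-actin, was the highest scaffold gene, with a mean of 18051 CPM per kb over the 6 mice. *Actn3* (1877), *Tcap* (1749.9), *Mybpc2* (1311) and *Myoz1* (964) followed, all in CPM per kb. *Ttn* was first of the scaffold genes in CPM but only the 8th per kb (556 CPM per kb), next to *Neb* (539 CPM per kb). The lowest were *Obsl1* (3.83), *Ankrd1* (3.64) and *Actn1* (1.48 CPM per kb).

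**Figure D2:**
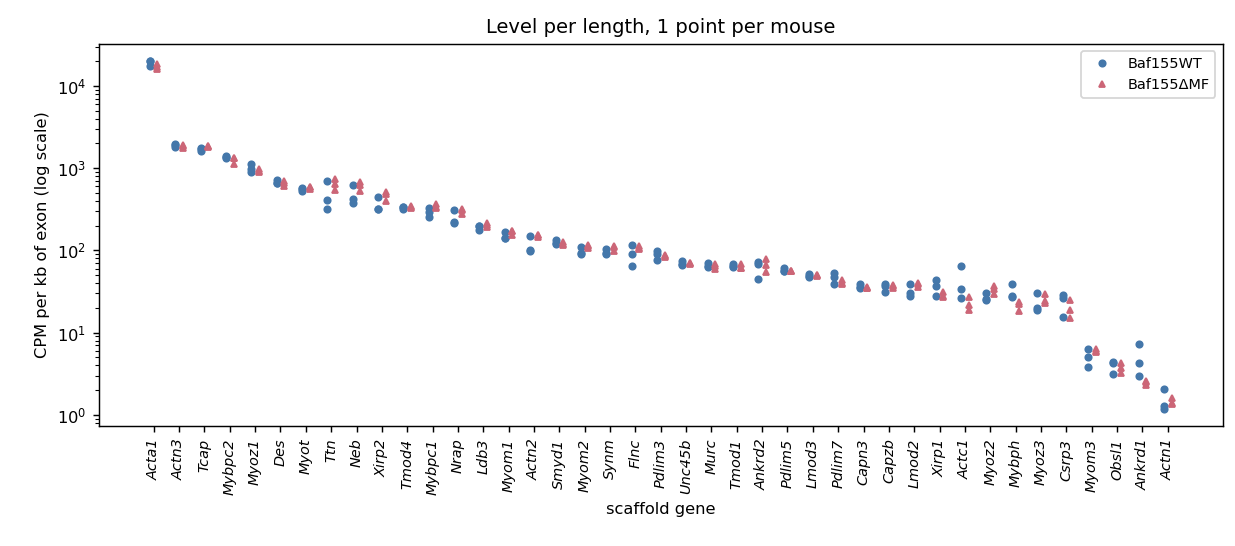
Level of each scaffold gene in each mouse as CPM per kb of summed exon (y axis, log scale), ordered by the mean of all 6 mice (x axis). Circles are Baf155WT mice and triangles Baf155ΔMF mice. Levels run from about 18051 CPM per kb for *Acta1* down to 1.48 for *Actn1*, and the widest spread within a genotype is visible for *Ankrd1*, *Actc1* and *Ttn*.

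The 3 α-actinins crosslink actin filaments. *Actn2*, the isoform of all striated fibres, measured 566, 386 and 372 CPM in Baf155WT and 583, 548 and 583 CPM in Baf155ΔMF muscle (log2 fold change 0.37, standard error 0.15, adjusted p = 0.601 from edgeR). Again the MS13 Baf155WT mouse lay within the range of the Baf155ΔMF mice, and within MS13 the log2 fold change was -0.00. *Actn3*, the fast-fibre isoform, measured 5746, 5500.0 and 5288 CPM in Baf155WT and 5464, 5603 and 5072 CPM in Baf155ΔMF mice, with overlapping ranges (log2 fold change -0.03, and -0.05 within MS13). *Actn1*, the isoform of non-muscle cells, was low, with 11.4, 7.04 and 6.6 CPM against 7.58, 8.93 and 7.72 CPM (log2 fold change -0.03, and -0.46 within MS13).

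Of the 11 Z-disc partners, 6 had a fitted value above 0 and 5 below, and 8 lay within 0.2 of 0. The calsarcins bind α-actinin and the phosphatase calcineurin. *Myoz2*, the calsarcin of slow fibres and heart, measured 105, 86.6 and 85.6 CPM in Baf155WT and 100.5, 126 and 116 CPM in Baf155ΔMF muscle. All but 1 of the Baf155ΔMF mice were above every Baf155WT mouse, and the log2 fold change came to 0.31 (standard error 0.11; edgeR adjusted p = 0.601) and to 0.11 within MS13. *Myoz1*, the most abundant calsarcin, measured 1696, 1851 and 2129 CPM in Baf155WT and 1702, 1841 and 1728 CPM in Baf155ΔMF mice, and *Myoz3* 103, 69.2 and 64.9 CPM against 102, 78.6 and 82.9 CPM. Both overlapped between genotypes, with log2 fold changes of -0.11 and 0.16 over all mice, and of 0.06 and -0.19 within MS13.

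*Tcap*, which encodes the titin cap telethonin, was 1 of the genes without overlap. It measured 1643, 1602 and 1516 CPM in Baf155WT and 1702, 1738 and 1752 CPM in Baf155ΔMF mice, so that all mutants were above all controls by a small margin (log2 fold change 0.12, standard error 0.10, and 0.07 within MS13). Myotilin, an actin crosslinker encoded by *Myot*, was nearly level at 1269, 1159 and 1242 CPM against 1290.2, 1297 and 1243 CPM. *Flnc*, the muscle filamin, measured 1088, 850.2 and 613 CPM in Baf155WT and 1053, 978 and 1013 CPM in Baf155ΔMF muscle, with the MS13 Baf155WT mouse highest of all 6 (log2 fold change 0.26, and -0.10 within MS13). *Csrp3*, the muscle LIM protein, varied within both genotypes, from 41.5 to 77.1 CPM in Baf155WT and from 39.8 to 66.2 CPM in Baf155ΔMF mice, where the individual values were 70.8, 77.1 and 41.5 CPM against 39.8, 66.2 and 50.9 CPM. Its log2 fold change of -0.27 had a standard error of 0.22, and within MS13 the value was -0.42. The PDZ-LIM proteins *Ldb3* (0.10), *Pdlim3* (-0.05), *Pdlim5* (-0.05) and *Pdlim7* (-0.19) had small log2 fold changes, and their genotypes overlapped.

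Desmin and synemin form the intermediate filaments around the Z-disc. *Des* measured 2457, 2658 and 2449 CPM in Baf155WT and 2481, 2605 and 2283 CPM in Baf155ΔMF mice (log2 fold change -0.04). *Synm* had means of 763 ± 59.5 CPM and 852 ± 68.4 CPM (SD, n = 3; log2 fold change 0.16). Both genes overlapped between genotypes, and neither passed the test.

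The paralogs *Xirp1* and *Xirp2* encode Xin-repeat proteins that bind actin, and their fitted log2 fold changes had opposite signs. *Xirp1* (chr9:120013755-120023598, minus strand) measured 257, 217 and 164 CPM in Baf155WT and 162, 159 and 179.9 CPM in Baf155ΔMF muscle. A single MS15 Baf155WT mouse lay within the Baf155ΔMF range, and the other Baf155WT mice lay above it. This gave a log2 fold change of -0.35 (standard error 0.14; edgeR adjusted p = 0.602), -0.68 within MS13 and -0.19 without the MS13 control. *Xirp2* (chr2:67446002-67526614, plus strand) measured 5405, 3778 and 3802 CPM in Baf155WT and 6099, 5816 and 4804 CPM in Baf155ΔMF muscle (log2 fold change 0.36, standard error 0.16, adjusted p = 0.617 from edgeR, and 0.14 within MS13). *Nrap*, which encodes a nebulin-related anchoring protein of the myotendinous junction and growing myofibrils, had means of 1356 ± 283 and 1662 ± 114 CPM (SD, n = 3; log2 fold change 0.29, and 0.04 within MS13).

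At the M-band, *Myom1* and *Myom2* encode the myomesins that bridge myosin filaments, and *Myom3* a myomesin of limited fibre types. *Myom1* measured 1768, 1486 and 1485 CPM in Baf155WT and 1788, 1773 and 1594 CPM in Baf155ΔMF mice, and *Myom2* 964, 802 and 827 CPM against 1028, 994 and 942 CPM. *Myom3*, far lower, measured 38.6, 30.3 and 23.0 CPM against 36.3, 38.1 and 35.5 CPM. In all 3 genes the MS13 Baf155WT mouse was the highest of its genotype, and the log2 fold changes were 0.12, 0.19 and 0.26 over all mice but 0.01, 0.07 and -0.05 within MS13. *Obsl1*, a cytoskeletal adaptor, had a log2 fold change of -0.08 (standard error 0.15), and -0.35 within MS13.

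**Figure D3:**
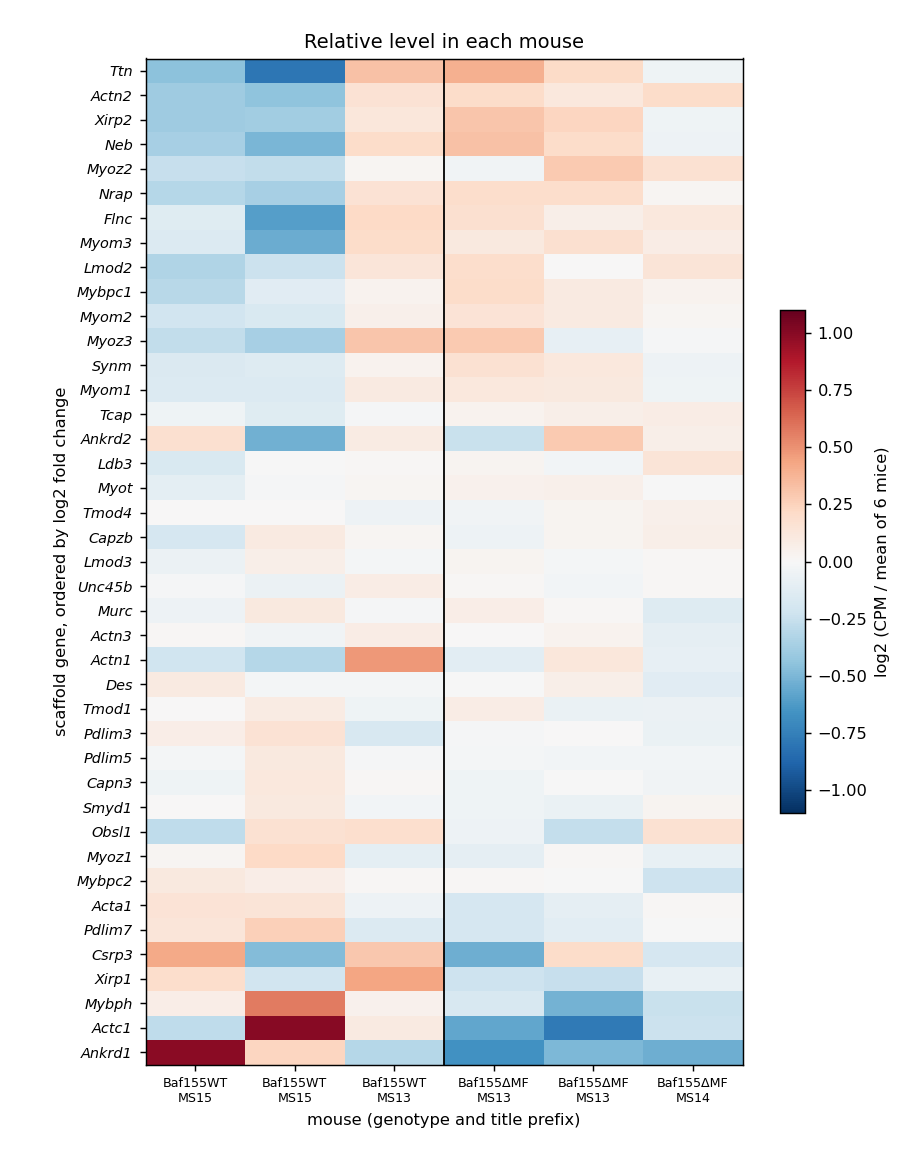
Log2 of the CPM of each scaffold gene (rows, ordered by log2 fold change) in each mouse (columns, with genotype and title prefix) over its mean in the 6 mice. Red is above and blue below that mean. In the upper rows (*Ttn* to *Myom1*) the MS15 Baf155WT mice are blue while the MS13 Baf155WT mouse is red, and in the bottom rows all Baf155ΔMF mice are blue for *Mybph*, *Actc1* and *Ankrd1*.

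Myosin-binding protein C stabilises the thick filament. *Mybpc1*, the slow isoform, measured 1471, 1157 and 1315 CPM in Baf155WT and 1644, 1534 and 1475 CPM in Baf155ΔMF muscle (log2 fold change 0.24, standard error 0.11, adjusted p = 0.622 from edgeR, and 0.11 within MS13). Its genotypes did not overlap, but the lowest mutant (1475 CPM) was barely above the highest control (1471 CPM). *Mybpc2*, the fast isoform, measured 4770.3, 5095 and 4989 CPM against 4788, 4727 and 4043 CPM, with overlap (log2 fold change -0.13). *Mybph*, a related protein without the full set of domains (chr1:134193448-134201232, plus strand), measured 63.4, 64.6 and 91.6 CPM in Baf155WT and 54.5, 42.9 and 52.0 CPM in Baf155ΔMF mice. All 3 mutants were below all 3 controls, the log2 fold change came to -0.56 (standard error 0.15; edgeR adjusted p = 0.601), and within MS13 it was -0.38. Without the MS15 control at 91.6 CPM it was -0.36. Its estimated count was not a whole number in 5 of 6 mice, which can arise when reads are divided between genes. No gene sharing its reads was identified. Its exons overlap *Adora1* on the opposite strand, and the part of this overlap in the count was not tested.

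Among the 7 thin filament genes, *Actc1* stood apart. It encodes the cardiac α-actin that is also made in developing and injured skeletal fibres (chr2:114047282-114053548, minus strand). *Actc1* measured 55.4, 42.7 and 104 CPM in Baf155WT and 34.8, 30.3 and 43.9 CPM in Baf155ΔMF mice, where the MS14 mutant overlapped the lowest control and 1 MS15 control was far above all others. Its log2 fold change came to -0.89 (standard error 0.27; edgeR adjusted p = 0.601), and -0.77 within MS13. Without the MS15 control at 104 CPM it was -0.43. *Acta1*, at 26648, 30787 and 30583 CPM in Baf155WT and 24426, 25858 and 28059 CPM in Baf155ΔMF muscle, had a log2 fold change of -0.17 (standard error 0.13), and its estimated count was not whole in any of the 6 mice. The filament nucleators *Lmod2* (0.25) and *Lmod3* (0.02), the pointed-end caps *Tmod1* (-0.04) and *Tmod4* (0.03) and the barbed-end cap *Capzb* (0.03) followed, as log2 fold changes.

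The ankyrin repeat proteins bind titin in the I-band. *Ankrd1* (chr19:36111961-36120099, minus strand) had the lowest fitted log2 fold change of the scaffold genes over all 6 mice, from a low level. It measured 8.45, 20.9 and 12.4 CPM in Baf155WT and 6.62, 7.48 and 7.25 CPM in Baf155ΔMF mice, without overlap, although the MS13 Baf155WT mouse lay only just above the mutants. Its log2 fold change came to -0.98 (standard error 0.28; edgeR adjusted p = 0.601) over all mice and -0.26 within MS13. Without the MS15 control at 20.9 CPM it was -0.55, above *Actc1* at -1.13 and *Mybph* at -0.64 in the same fit. *Ankrd2*, its relative in slow fibres, measured 77.8, 82.6 and 50.7 CPM against 61.8, 89.0 and 76.5 CPM, fully intermixed. The caveola-associated *Murc* (*Cavin4*) measured 132, 128 and 143 CPM against 139.6, 134 and 120.3 CPM.

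The genes of filament assembly and turnover were the most even group, with log2 fold changes from -0.06 to -0.00. *Smyd1*, a myosin-binding methyltransferase, measured 549, 564 and 605 CPM in Baf155WT and 542, 534 and 575 CPM in Baf155ΔMF muscle. *Unc45b*, the myosin chaperone, measured 332, 310.5 and 301 CPM against 317, 307 and 317 CPM. The muscle calpain *Capn3*, a protease that binds titin, measured 182, 175 and 195 CPM against 175, 179.6 and 176 CPM. Each of the 3 had a standard error of 0.09, and in each the genotypes overlapped.

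**Figure D4:**
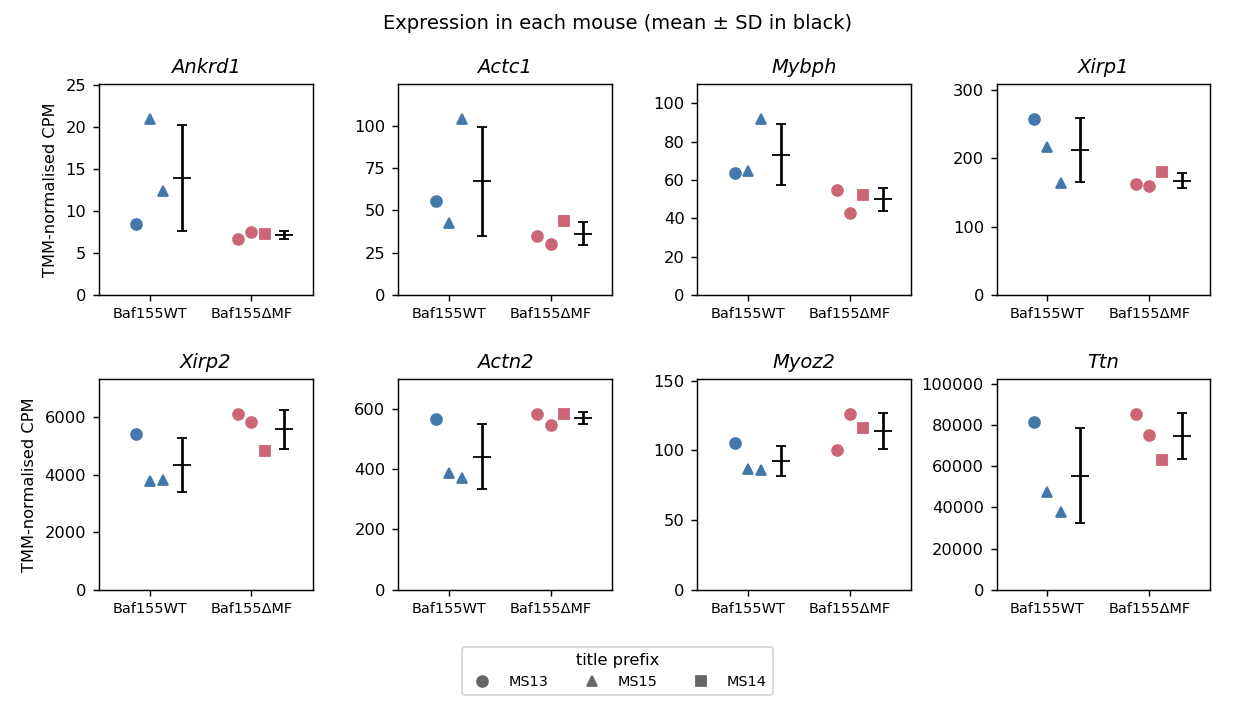
TMM-normalised CPM (y axes, linear, from 0) in each mouse for the 7 scaffold genes with an unadjusted p under 0.05 and for *Ttn*. Blue is Baf155WT and red Baf155ΔMF, the shape gives the title prefix, and black bars are the mean ± SD of 3 mice. In the lower row the MS13 Baf155WT mouse (blue circle) lies above both MS15 Baf155WT mice and near the Baf155ΔMF mice, while *Ankrd1* and *Mybph* in the upper row show no overlap.

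The count of scaffold genes that passed rested on the MS13 Baf155WT mouse. Without it, 13 scaffold genes passed an adjusted p under 0.05 in edgeR, where the fit of all 6 mice called 0. The 10 higher ones were *Ttn*, *Neb*, *Actn2*, *Myoz2*, *Myoz3*, *Flnc*, *Xirp2*, *Nrap*, *Myom3* and *Lmod2* (24.4% of the scaffold genes, against 3.6% of all 12288 genes then tested). The 3 lower ones were *Actc1*, *Mybph* and *Ankrd1* (7.32%, against 4.17% of all genes). In the fit without this mouse no control shared a title prefix with any mutant, so effects of genotype and prefix cannot be told apart. For *Ttn* the log2 fold change without this mouse came to 0.81 (standard error 0.16; adjusted p = 0.00789 from edgeR, where the alternatives ranged from 0.00789 to 0.998), and for *Ankrd1* -1.23 (standard error 0.20, adjusted p = 0.00203 from edgeR, with alternatives from 0.00203 to 0.992). *Actn2* reached 0.59, *Neb* 0.60 and *Xirp2* 0.56 on the same log2 scale. In all 10 higher genes the left-out mouse was above both other Baf155WT mice, and all 10 had a log2 fold change within 0.2 of 0 between the MS13 mice. In 2 of the 3 lower genes it was below both other Baf155WT mice, and in 7 of the 13 it lay inside the range of the Baf155ΔMF mice. The 13 genes were called only with this mouse left out, so these counts follow in part from that choice and are no separate evidence. Over the MS13 mice alone, 34 of the 41 scaffold genes lay within 0.2 of 0, with a median log2 fold change of -0.01, against 0.00 over all genes. No share of all genes is given for that band. Leaving out any of the other 5 mice gave 0 scaffold genes at an adjusted p under 0.05, with 3 to 5 at an unadjusted p under 0.05, where 3.69% to 10.2% of all genes were.

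The fold changes of the scaffold genes moved with gene length. Spearman's rho between log2 fold change and summed exon length was 0.36 over the 41 genes and 0.31 over the 12089 genes tested with a known length, given as a description because genes of the same libraries are not independent. Without the MS13 Baf155WT mouse rho was 0.42 over the scaffold genes, and within MS13 it was 0.11 (0.35 and 0.03 over all genes). Leaving *Ttn* and *Neb* out of the full comparison gave 0.26 over 39 genes. The 8 scaffold genes with at least 8 kb of exon (*Ttn*, *Neb*, *Xirp2*, *Myom1*, *Flnc*, *Pdlim5*, *Myom2* and *Obsl1*) had a median log2 fold change of 0.22, with 6 above 0, against -0.03 in the other 33. After a smooth trend with length was removed from each mouse, *Ttn* was at 0.11, *Neb* at 0.20 and *Xirp2* at 0.29, while *Actn2* was at 0.40, *Ankrd1* at -0.92, *Actc1* at -0.77 and *Mybph* at -0.47.

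**Figure D5:**
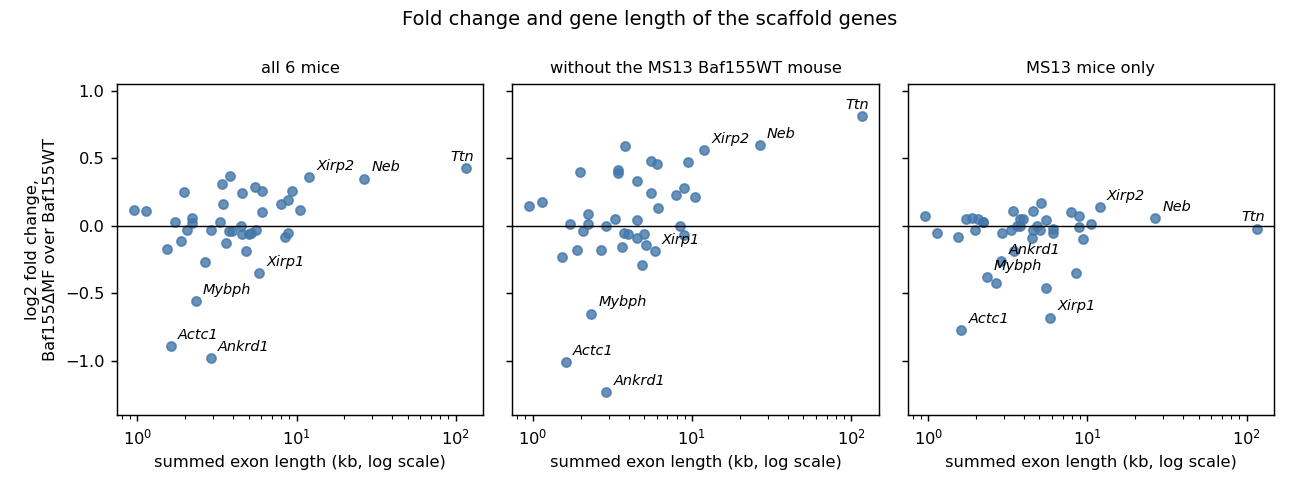
Log2 fold change of each scaffold gene (y axis) against its summed exon length (x axis, log scale, kb) for all 6 mice, without the MS13 Baf155WT mouse, and between the MS13 mice alone. *Ttn*, *Neb* and *Xirp2*, the longest genes, lie above 0 in the left and middle panels (*Ttn* at 0.43 and 0.81) and closer to 0 in the right panel (*Ttn* at -0.02).

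The wider set of sarcomere genes outside the scaffold list was compared in the same fit. Of 40 such genes, 39 were tested (*Nebl* had too few counts), and none passed the adjusted limit. By unadjusted p, 5 were higher under 0.05 and 1 was lower (3.35% and 4.6% of all genes), and the median log2 fold change was 0.13. The higher ones were the small heat shock proteins *Hspb6* (0.53) and *Hspb7* (0.43), the intermediate filament protein nestin (*Nes*, 0.37), the formin *Fhod1* (0.40) and the smoothelin-like *Smtnl1* (0.28), all as log2 fold changes, and the lower one was *Klhl40* (-0.22), a chaperone of thin filament proteins. *Hspb6* measured 356, 258 and 278 CPM in Baf155WT and 439, 396 and 451 CPM in Baf155ΔMF muscle, without overlap, and had a log2 fold change of 0.23 within MS13. The other values within MS13 were 0.22 for *Smtnl1*, 0.10 for *Hspb7*, 0.01 for *Nes*, -0.09 for *Fhod1* and -0.02 for *Klhl40*. Without the MS13 Baf155WT mouse, 9 of the 39 were higher at an adjusted p under 0.05 in edgeR and 0 lower, against 3.6% and 4.17% of all genes. Genotype and prefix cannot be told apart in that fit.

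Slow- and fast-fibre markers were set beside the isoforms above, since a different share of fibre types and a different RNA content per fibre cannot be told apart in whole muscle. None of the 9 slow and 9 fast markers had an adjusted p under 0.05. The slow markers summed to 801 to 1188 CPM in Baf155WT and 999 to 1164 CPM in Baf155ΔMF mice, and the fast markers to 121513 to 126225 and 113926 to 124001 CPM. *Myh1*, the myosin heavy chain of type IIx fibres, was the only one of these at an unadjusted p under 0.05 (log2 fold change 0.49, and 0.29 within MS13), with no overlap. The slow isoforms *Mybpc1* and *Myoz2* and the fast isoforms *Mybpc2* and *Myoz1* are given above, and the part of fibre type in their values was not tested.

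Markers of other cells of the muscle were compared in the same fit. All 4 macrophage markers were lower in Baf155ΔMF muscle at an unadjusted p under 0.05 (median log2 fold change -0.90). Their sums were 69.4, 204 and 160.3 CPM in Baf155WT and 64.2, 65.3 and 110.3 CPM in Baf155ΔMF mice. All 4 passed an adjusted p under 0.05 without the MS13 Baf155WT mouse, where genotype and prefix cannot be told apart. That mouse was again beside the MS13 mutants. Among the 3 lower scaffold genes named below, the log2 fold change within MS13 was -0.26 for *Ankrd1*, -0.77 for *Actc1* and -0.38 for *Mybph*. Of the other lists, at an unadjusted p under 0.05 (4.6% of all genes lower and 3.35% higher), 2 of 4 fibroblast (*Dcn* and *Lum*, with *Col1a1* at a log2 fold change of 0.36), 1 of 3 adipocyte and 2 of 3 blood markers were lower, while 2 of 4 endothelial, 1 of 6 smooth muscle and pericyte and 1 of 3 regenerating fibre markers (*Myh8*, 0.55) were higher. The 3 markers each of satellite cells, tendon and Schwann cells gave 0 at that limit, and no marker on any of these lists passed an adjusted p under 0.05 over all 6 mice. The part of these cells in the values of *Actc1*, *Ankrd1* and *Mybph* was not tested.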

How the data were processed

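The authors deposited 1 table of expected counts (estimated reads per gene, without normalization) for 20632 gene symbols in 6 libraries, made with a stranded total RNA kit. The submitters' processing notes name CASAVA 1.8.2, cutadapt 1.10, Bowtie2 2.2.7, TopHat2 2.1.1, RSEM 1.2.30, limma and the builds mm10 and GRCm38. The annotation and whether counting used strand are not given in the sources used here. The titles number 6 mice, and if libraries shared an animal, p-values would measure technical spread only.

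Estimates were rounded to whole counts and compared in R 4.3.3 with edgeR 4.0.16 (filterByExpr with a minimum count of 10 and a minimum total of 15, TMM scaling, quasi-likelihood F test, no covariate, Benjamini-Hochberg adjustment over 12116 genes). The rounded counts summed to 8426022 to 12469335 per library. Exon lengths and positions came from GENCODE M21 (GRCm38), which gave a length for 12089 of the genes tested and lists *Murc* as *Cavin4*. Promoters came from RefSeq (GRCm38.p6), with an entry for 32 of the 41 genes. The estimates of *Acta1*, *Myoz3* and *Tmod1* (6 mice each), *Mybph* (5) and *Unc45b* (1) were not whole within 0.005. Exons of 26 scaffold genes overlap no other gene, and those of *Capn3* and *Pdlim7* overlap *Ganc* and *Mir6945* on the same strand. Fold changes within MS13 compare the mean CPM of 2 mutants with 1 control and have no test.

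Alternative fits used limma 3.58.1 (voom) or DESeq2 1.42.0, other filters and scalings, robust estimation, a covariate for the title prefix, a length trend removed from each mouse (loess, span 0.5), and leaving out each mouse. The fit was tested on simulated counts, in which 200 genes were changed 2-fold. It recovered 172 of them and made 14 false calls. The simulated mice had no effect of prefix and no trend with length, so the test does not cover these. The members and gene lists were chosen with earlier results of these data known. Values in all mice are given for scaffold genes with an adjusted or unadjusted p under 0.05, for those without overlap between genotypes, and for a fixed set of Z-disc, M-band, filament and assembly genes. Other sarcomere genes, slow and fast fibre markers and markers of skeletal muscle, heart, smooth muscle and pericytes, endothelium, fibroblasts, macrophages, adipocytes, blood, Schwann cells, satellite cells, tendon and regenerating fibres came from fixed lists, of which 1 gene is not reported here.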

Additional observations from a re-analysis of the deposited data

How the results depend on the processing

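Each of the 41 scaffold genes was refitted under 16 alternatives, which gave 656 log2 fold changes. At 2 decimals, 611 did not change sign and kept their side of an adjusted p under 0.05, counting 27 where the value or its alternative was 0.00, 32 reversed (13 with a mouse left out and 19 otherwise), and 13 passed the limit, all without the MS13 Baf155WT mouse. By this count 23 scaffold genes reversed under none, among them *Unc45b* (-0.00, from -0.03 to 0.04 with a mouse left out) and *Actn2* (0.37, and -0.00 with prefix as a covariate). The cause of these shifts was not tested. No paired analysis was possible because the replicate numbers only name the mice in accession order and the titles pair none of them.

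The count of all genes at an adjusted p under 0.05 (3 by edgeR) was 22 with DESeq2, 17 without a filter, 16 with the title prefix as a covariate, 7 with the length trend removed and 5 with limma-voom, and ranged from 0 to 955 when each mouse was left out. The count of scaffold genes (0) ranged from 0 to 13, and was above 0 only without the MS13 Baf155WT mouse. In the fits that called no scaffold gene, 3 to 10 had an unadjusted p under 0.05 (10 with DESeq2, 9 with limma-voom, 7 in the main edgeR fit), where 3.69% to 10.2% of all genes did (4.99% with DESeq2, 7.76% with limma-voom). The scaffold median of 0.02 became 0.06 with the length trend removed and -0.05 with library size only. Scaffold genes above all Baf155WT mice numbered 1 with RLE scaling (5.06% of all genes) and 1 with the length trend removed (5.58%; main 2), and those below numbered 5 with library size only (7.07% of all genes, with 3.9% above; main 2).

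Only MS13 held both genotypes, so with prefix as a covariate the genotype difference rested on its 2 Baf155ΔMF mice and 1 Baf155WT mouse. The fold changes of that fit therefore follow those within MS13 and are no separate evidence. With this covariate, the log2 fold change reversed to -0.02 for *Ttn*, 0.06 for *Myoz1*, -0.19 for *Myoz3*, -0.02 for *Ldb3*, 0.17 for *Pdlim3* and -0.10 for *Flnc*. It also reversed to 0.05 for *Des*, -0.05 for *Myom3*, -0.03 for *Lmod2*, 0.05 for *Tmod1*, -0.03 for *Capzb*, -0.04 for *Ankrd2* and 0.05 for *Murc*. With the length trend removed it reversed to 0.02 for *Actn3* and 0.06 for *Murc*, with limma-voom to 0.02 for *Actn1*, and with library size only to -0.05 for *Lmod3*, -0.03 for *Tmod4* and -0.03 for *Capzb*. When each mouse was left out, the values ran from -0.06 to 0.01 for *Actn3*, -0.17 to 0.24 for *Actn1*, -0.14 to 0.02 for *Pdlim3*, -0.08 to 0.02 for *Des*, -0.22 to 0.02 for *Obsl1*, -0.01 to 0.06 for *Lmod3*, -0.04 to 0.10 for *Capzb*, -0.08 to 0.24 for *Ankrd2* and -0.07 to 0.03 for *Murc*. Standard errors of 0.08 to 0.28 on the log2 scale set what 3 mice per genotype could detect.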

Other observations

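Ratios between related scaffold genes within each mouse do not depend on the scaling of the library. The trend with gene length was not removed from them. It can enter where exon lengths differ, as for *Ttn* (117 kb) and *Acta1* (1.54 kb) or *Xirp2* (12 kb) and *Xirp1* (5.84 kb). The pairs below were chosen after the values were seen, so no test is given. The ratio of *Xirp2* to *Xirp1* CPM was 21, 17.4 and 23.2 in the Baf155WT mice (MS13 mouse first) and 37.7, 36.5 and 26.7 in the Baf155ΔMF mice (MS14 mouse last), with no overlap. In the MS13 mice it was 21 in the control and 37.7 and 36.5 in the mutants. The slow to fast ratio of myosin-binding protein C, *Mybpc1* to *Mybpc2*, was 0.308, 0.227 and 0.264 in Baf155WT and 0.343, 0.324 and 0.365 in Baf155ΔMF muscle, also with no overlap, and the MS13 control was the nearest to the mutants. *Myoz2* to *Myoz1* gave 0.0618, 0.0468 and 0.0402 against 0.059, 0.0685 and 0.0669, and *Actn2* to *Actn3* gave 0.0985, 0.0702 and 0.0703 against 0.107, 0.0978 and 0.115, both with overlap. *Actc1* was 0.208%, 0.139% and 0.339% of *Acta1* in Baf155WT and 0.143%, 0.117% and 0.156% in Baf155ΔMF mice. *Ttn* to *Acta1* was 3.05, 1.54 and 1.23 against 3.49, 2.91 and 2.24, where the MS13 control lay among the mutants.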
